A study of Mus musculus with 16 samples.

Results

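The genes described here encode the assembly machinery and the enzymes of the peroxisome, and they were taken as a fixed list of 48 symbols among the 52338 gene rows of the deposited count table. The list held 13 biogenesis genes (the Pex genes) and 35 genes for enzymes and membrane proteins. All 48 were in the table and all 48 passed the filter on low counts, which left 17731 genes for testing.

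The data were 16 RNA-seq libraries from frozen kidney powder of C57BL6 mice, all on a high-fat diet and all sampled 15 days after treatment. The 4 groups of 4 libraries were vehicle with feeding ad libitum (V-AL below), vehicle with feeding restricted in time (V-TR), FAN with feeding ad libitum (F-AL) and FAN with restricted feeding (F-TR). FAN is the injury treatment as the labels write it. Age, sex, dose and the hours of food access are not given in the sources used here, and no untreated mice on another diet were analysed. The labels give separate samples per group and do not say how the animals were housed or whether tissue was pooled, so the p-values measure the spread between these samples. In whole tissue, fewer cells of a type and less RNA per cell cannot be told apart.

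Peroxisomes are small organelles that hold oxidative enzymes. Their membrane proteins are inserted with the help of PEX3, PEX16 and PEX19, and their matrix enzymes are imported by the receptors PEX5 and PEX7, a docking complex with PEX13 and PEX14, and a recycling machinery with PEX2, PEX10, PEX6 and PEX26. Inside, very-long-chain, branched-chain and dicarboxylic acyl-CoAs are shortened by beta-oxidation, phytanic acid is alpha-oxidised, the first steps of ether lipid synthesis take place, and catalase breaks down the hydrogen peroxide that the oxidases make. In the kidney, peroxisomes are most abundant in the proximal tubule, and many of their genes are known targets of the fatty acid receptor PPARα.

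Promoter sequence was examined because PPARα with its partner RXR binds a direct repeat of AGGTCA with 1 base between the copies. RefSeq promoter windows on GRCm38.p6, which run from 250 bases before to 50 bases after a start, were found for 39 of the 48 members and gave 48 windows. The repeat AGGTCANAGGTCA, searched on both strands, was in 0 of the 48 windows and in 0.0396% of 32851 windows of all genes. The looser AGGNCANAGGNCA was likewise in 0 of the 48, against 0.381% of all windows. With shares this low, 0 of 48 windows cannot be told apart from the share of all windows, and sites outside the windows were not searched. A lone AGGTCA, a copy of which makes up each arm of the stricter repeat, was in 7 of the 48 windows (14.6%, against 16.3% of all windows), in Acot4, Cat, Dao, Ddo, Pex11g, Phyh and Scp2. The E-box CACGTG was in 4 windows (8.33%, against 7.15%), in Acot4, Dao, Ddo and Gnpat. The stretches below are the 5 upstream matches that overlap no annotated exon, each read 5′ to 3′ along the gene with AGGTCA, or its reverse complement TGACCT, in capitals. They are shown so that the motif can be seen in its surroundings, and a match is a description of letters, not a bound site.
Cat, chr2:103485335-103485374, minus strand: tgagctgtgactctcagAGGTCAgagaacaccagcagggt
Scp2, chr4:108118634-108118673, minus strand, within a longer Scp2 gene model: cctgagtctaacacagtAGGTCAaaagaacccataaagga
Pex11g, chr8:3467799-3467838, minus strand: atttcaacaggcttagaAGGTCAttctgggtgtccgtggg
Ddo, chr10:40629806-40629845, plus strand: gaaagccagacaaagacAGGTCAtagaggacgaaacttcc
Acot4, chr12:84038349-84038378, plus strand: ggctcagccccgaagcaTGACCTttggccg

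Totals ran from 12450812 to 33976660 counts per library. Levels are given as CPM, counts scaled to a common library total, after TMM scaling, a factor that adjusts each total so that most genes centre on no difference. These factors were 1.32 to 1.53 in F-AL and 0.816 to 0.975 in the other 12 libraries, and transcripts of the mitochondrial genome took 6.94% to 14.8% of counts in F-AL against 17.2% to 26.7% elsewhere. A count of 3 corresponded to 0.0883 to 0.241 CPM before that factor. The S numbers in the column headers, called sheet positions here, split the libraries into 7 of early and 9 of later position. Both contain all 4 groups, but F-TR has only 1 early library. Within each set the vehicle and the FAN libraries have separate runs of positions, far apart in the later set, so that there FAN and position cannot be told apart.

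FAN with ad libitum feeding went with lower transcript levels across nearly the whole list. Of the 48 members, 44 fell and 0 rose against V-AL at an adjusted p under 0.05 (edgeR quasi-likelihood test, Benjamini-Hochberg over all genes), where 28.6% of all genes fell and 32.1% rose. The 4 that did not pass were Pex2, Pex26, Abcd2 and Hacl1. The median log2 change was −1.20, beside 0.06 over all genes tested. The libraries of the groups did not overlap for 43 members, all lower in FAN, against 25.9% of all genes in that direction and 54.9% in either. F-AL had the lowest group mean for 46 of 48 members, the exceptions being Pex26 and Abcd2.

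With time-restricted feeding the FAN change was smaller in number and size. Of the 48 members, 29 fell and 0 rose against V-TR, where 19% of all genes fell, and the median log2 change was −0.50 beside 0.05 over all genes. The libraries did not overlap for 24 members, all lower, against 17.9% of all genes in that direction and 40.3% in either. Compared directly within FAN, 43 members were called higher under time-restricted than under ad libitum feeding and 0 lower, where 17.9% of all genes were higher and 13.9% lower, with a median log2 difference of 0.98 beside −0.02. The test of the difference between the FAN effects, the interaction, passed for 28 members, all with the smaller fall under time-restricted feeding, where 7.76% of all genes passed in that direction and 9.16% in either. These comparisons share libraries and are not independent of each other.

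**Figure D1:**
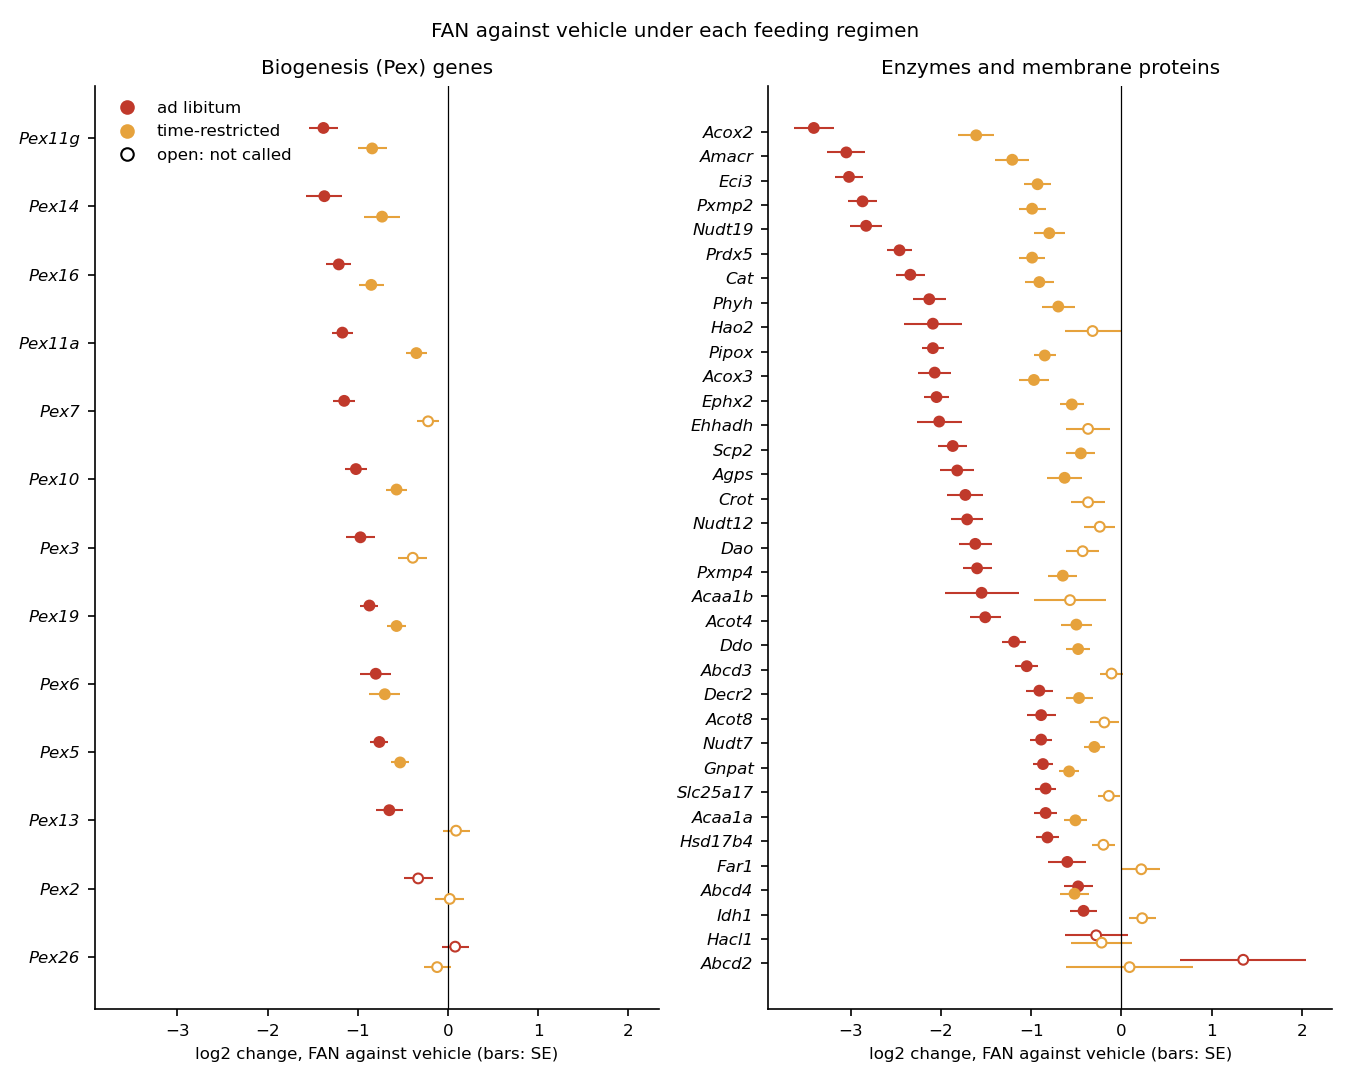
Log2 change of FAN against vehicle (x axis, with standard error bars) for each member (y axis), under ad libitum feeding in red and time-restricted feeding in orange, with open symbols for changes that did not pass the test. The red points of 46 members lie below 0 and most orange points lie nearer to 0 than the red point of the same gene.

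The enzymes and membrane proteins had a lower median than the biogenesis genes under ad libitum feeding. The 35 had a median log2 change of −1.62, with 33 falling, and the 13 Pex genes −0.97, with 11 falling, where 28.6% of all genes fell. As a share of the vehicle mean, the median FAN level was 32.5% for the 35 and 51.3% for the Pex genes. Under time-restricted feeding the medians were close, 70.8% and 69.2%, with 21 of 35 and 8 of 13 falling, where 19% of all genes fell. The interaction passed for 25 of 35 (median 1.10) and for 3 of 13 (median 0.45), where 7.76% of all genes passed in that direction. The difference between these subsets was described and not tested. The same shares of all genes stand beside the counts by role that follow, with 17.9% higher in F-TR than in F-AL.

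How the libraries are scaled matters for the Pex genes in particular. With scaling by total count alone, the median change of all genes tested became 0.76 for FAN against V-AL, 0.15 for the same contrast under time-restricted feeding, −0.67 for feeding within FAN and −0.57 for the interaction. On that scale 28 members fell and 3 rose (Pex2, Pex26 and Abcd2) in F-AL. Among the Pex genes, 6 fell and 2 rose, with a median of −0.28, and among the other 35 members, 22 fell and 1 rose, with a median of −0.92. Over all genes, 11.7% fell and 61% rose on that scale. The 16 members whose fall was called with TMM and not by total count were Pex3, Pex5, Pex6, Pex13, Pex19, Abcd4, Slc25a17, Hsd17b4, Acaa1a, Acaa1b, Decr2, Acot8, Nudt7, Gnpat, Far1 and Idh1. Relative to the median of all genes, the Pex median was −1.04 and that of the others −1.68 by total count, which a change of scale leaves as it is by construction. In F-TR against V-TR the total-count scale gave 25 members lower and 1 higher (Idh1), where 13.9% of all genes were lower and 28.5% higher, and Pex11a, Decr2, Acot4 and Nudt7 lost their calls. Within FAN, time-restricted feeding against ad libitum on that scale gave 24 members higher and 3 lower (Pex5, Pex6 and Pex26), with medians of −0.12 for the Pex genes and 0.56 for the others, where 5.58% of all genes were higher and 59.3% lower. For the interaction it gave 15 members higher and 2 lower (Pex26 and Abcd4), where 2.84% of all genes were higher and 34.6% lower, with medians of −0.14 for the Pex genes and 0.49 for the others. The interactions not called on that scale were those of Pex7, Pex11a, Pex13, Abcd3, Slc25a17, Pxmp4, Hsd17b4, Acox3, Acot4, Nudt7, Dao, Ddo and Agps.

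Percent of all counts is the same quantity as the total-count scale. The 13 Pex genes together took 0.0477% ± 0.00229 (SD, n = 4) of all counts in F-AL and 0.0476% ± 0.001 in F-TR, against 0.0529% ± 0.00239 and 0.0577% ± 0.00187 in V-AL and time-restricted. The other 35 members took 0.53% ± 0.0596 in F-AL and 0.968% ± 0.0255 in F-TR, against 1.29% ± 0.0714 and 1.41% ± 0.0455. With TMM the Pex sum was instead lower in F-AL, at 316 to 345 CPM against 503 to 540 in F-TR, and 10 of the 13 were called higher in F-TR. Whether the Pex genes differed between the FAN groups therefore depended on the scaling, whereas the sum of the other 35 was lower in F-AL on both scales.

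**Figure D2:**
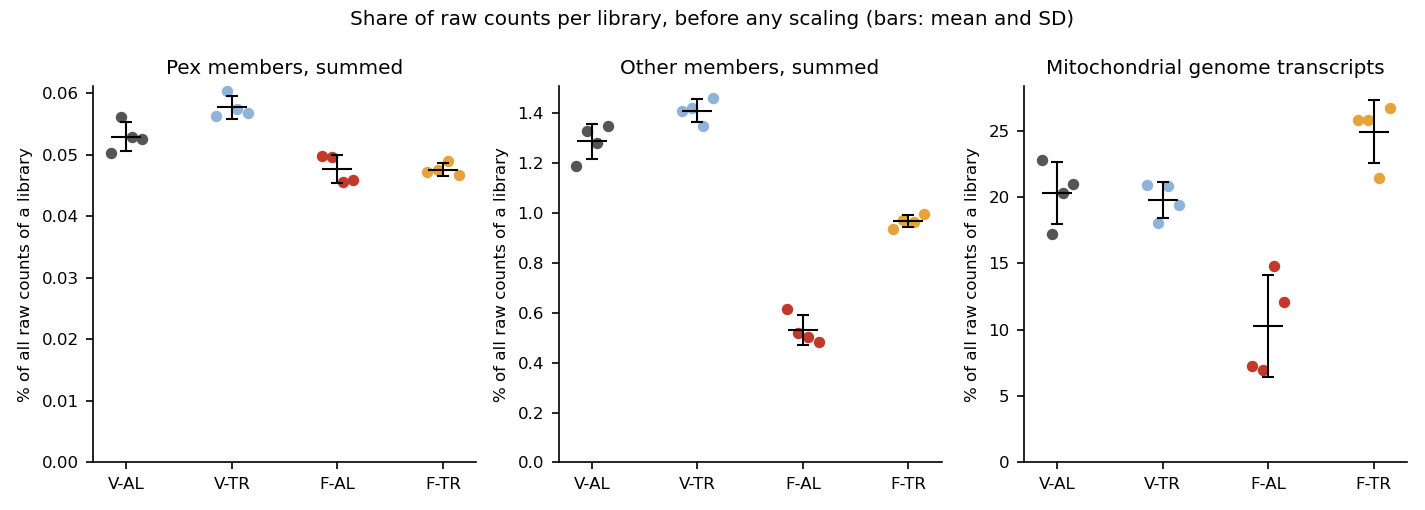
Percent of all raw counts of a library (y axis) taken by the Pex members, the other members and transcripts of the mitochondrial genome, with 1 point per library and bars for mean and SD. V is vehicle, F is FAN, AL is ad libitum and TR is time-restricted. The FAN groups lie at the same height for the Pex members and apart for the other members.

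Among the biogenesis genes, the clearest changes were in Pex11a and Pex7. Pex11a (chr7:79735957-79743131, GRCm38), whose product elongates peroxisomes before they divide, measured 85.2, 81.5, 72.3 and 87 CPM in V-AL and 122, 121, 124 and 112 in V-TR. It measured 44.2, 37.3, 34.2 and 28.9 in F-AL and 94.1 ± 8.5 (SD, n = 4) in F-TR, with a lowest value of 81.7. The F-AL libraries lay below all others, and those of V-TR above all others. The log2 change with FAN was −1.17 ± 0.12 (SE, adjusted p = 1.80e-07) under ad libitum and −0.35 ± 0.12 (0.0257) under time-restricted feeding, and the interaction was 0.83 ± 0.17 (0.00428). The call on the smaller change was lost without F-TR 6, V-TR 1 or V-TR 3, with adjusted p of 0.056 to 0.0869.

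Pex7 (chr10:19853900-19907689), the import receptor for enzymes such as phytanoyl-CoA hydroxylase and AGPS, measured 68.4, 61, 59.5 and 58.5 CPM in V-AL and 29.3, 25.3, 32.6 and 24.8 in F-AL. In V-TR it measured 67.9, 56.2, 66.7 and 66.4, and in F-TR 58.3, 52.9, 45.5 and 63.7. F-AL stood apart from the other 3 groups, and the time-restricted groups overlapped. Its change was −1.15 ± 0.12 (adjusted p = 2.55e-07) under ad libitum and −0.22 ± 0.12 (0.144) under time-restricted feeding, with an interaction of 0.92 ± 0.17 (0.00202).

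Pex5, the main import receptor, and Pex6, an ATPase that recycles it, were low in FAN under both regimens. Pex5 measured 55.3 to 60.5 CPM in V-AL and 53.9 to 64.3 in V-TR, against 29.4 to 39.1 in F-AL and 37.7 to 43.3 in F-TR. It fell in both comparisons (−0.76 ± 0.10 and −0.53 ± 0.10, adjusted p = 4.21e-06 and 0.000434). Pex6 fell by 0.80 and by 0.70 on the log2 scale (adjusted p = 0.000638 and 0.00353). On the total-count scale neither passed in F-AL, with Pex5 at −0.06 (adjusted p = 0.656) and Pex6 at −0.09 (0.699). The feeding difference within FAN was 0.25 for Pex5 and 0.04 for Pex6 (adjusted p = 0.0687 and 0.894), and on the total-count scale it was −0.40 and −0.62, called lower there.

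Pex19 (chr1:172126755-172136493), the chaperone of membrane proteins and the Pex member with the most counts, measured 109, 124, 115 and 117 CPM in V-AL and 73.3, 68.6, 59.5 and 53.9 in F-AL. It measured 130, 126, 125 and 128 in V-TR and 88.2, 78.4, 83.9 and 91.3 in F-TR. The FAN libraries of either regimen lay below all vehicle libraries, with changes of −0.87 ± 0.10 and −0.57 ± 0.10 (adjusted p = 1.13e-06 and 0.000241). The change under ad libitum was −0.16 on the total-count scale and did not pass there (adjusted p = 0.195).

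The other membrane assembly genes fell too under ad libitum feeding, Pex3 by 0.97 and Pex16 by 1.21 on the log2 scale. Of the docking complex, Pex14 fell by 1.37 and Pex13 by 0.65, and Pex13 was at 106% of vehicle under time-restricted feeding. On the total-count scale Pex3 (−0.28, adjusted p = 0.0972) and Pex13 (0.04, 0.799) did not pass under ad libitum feeding. The E3 ligase subunit Pex10 and the fission-related Pex11g fell under both regimens, Pex11g to 38.3% and 55.8% of vehicle. Pex13, the remaining Pex gene past the interaction threshold (0.74 ± 0.21, adjusted p = 0.0332), lost that call in 11 of the 16 fits that left out 1 library, with adjusted p of 0.0521 to 0.0786.

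Pex2 and Pex26 did not pass in F-AL. Pex26, which anchors the recycling ATPases at the membrane, measured 12.6, 12.1, 14.5 and 17.5 CPM in V-AL and 16.7, 16.6, 13 and 13.5 in F-AL, and these ranges overlapped. Its log2 change was 0.08 ± 0.15 (adjusted p = 0.647), against 0.79 and a call on the total-count scale. Pex2, an E3 ligase subunit, measured 33.3 and 34.7 CPM in the early F-AL libraries 6 and 7, and 62.1 and 51.7 in the later libraries 10 and 12, beside 50.9 to 61.4 in V-AL and 54.2 to 68.1 in V-TR.

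That split by sheet position ran in both directions. Of the 48 members, 8 were lower in both early F-AL libraries than in both later ones (Pex2, Pex3, Pex13, Hacl1, Nudt7, Hao2, Agps and Far1), 20 were higher in both early ones and 20 were in neither class. Of all genes tested, 30.3% were lower in both early ones, 32.7% were higher and 37% were in neither class. Its part in the results was not tested beyond the fits that follow. With the early libraries alone, 43 members fell in F-AL, where 24.4% of all genes fell, and with the later ones 41, where 24.1% fell. Results of the early fit that involve F-TR rest on 1 F-TR library, which is assumed to vary like the other groups. The corresponding counts were 23 and 22 lower for FAN under time-restricted feeding, with 1 higher (Far1) in the early set, where 13.5% and 12.4% of all genes were lower. They were 30 and 39 higher for time-restricted against ad libitum within FAN (13.7% and 11.8% of all genes), and 15 and 21 for the interaction (6.65% and 4.71%). With sheet position as a covariate over all libraries the 4 counts were 45, 29, 42 and 27, and this covariate does not separate FAN from position within the later libraries.

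**Figure D3:**
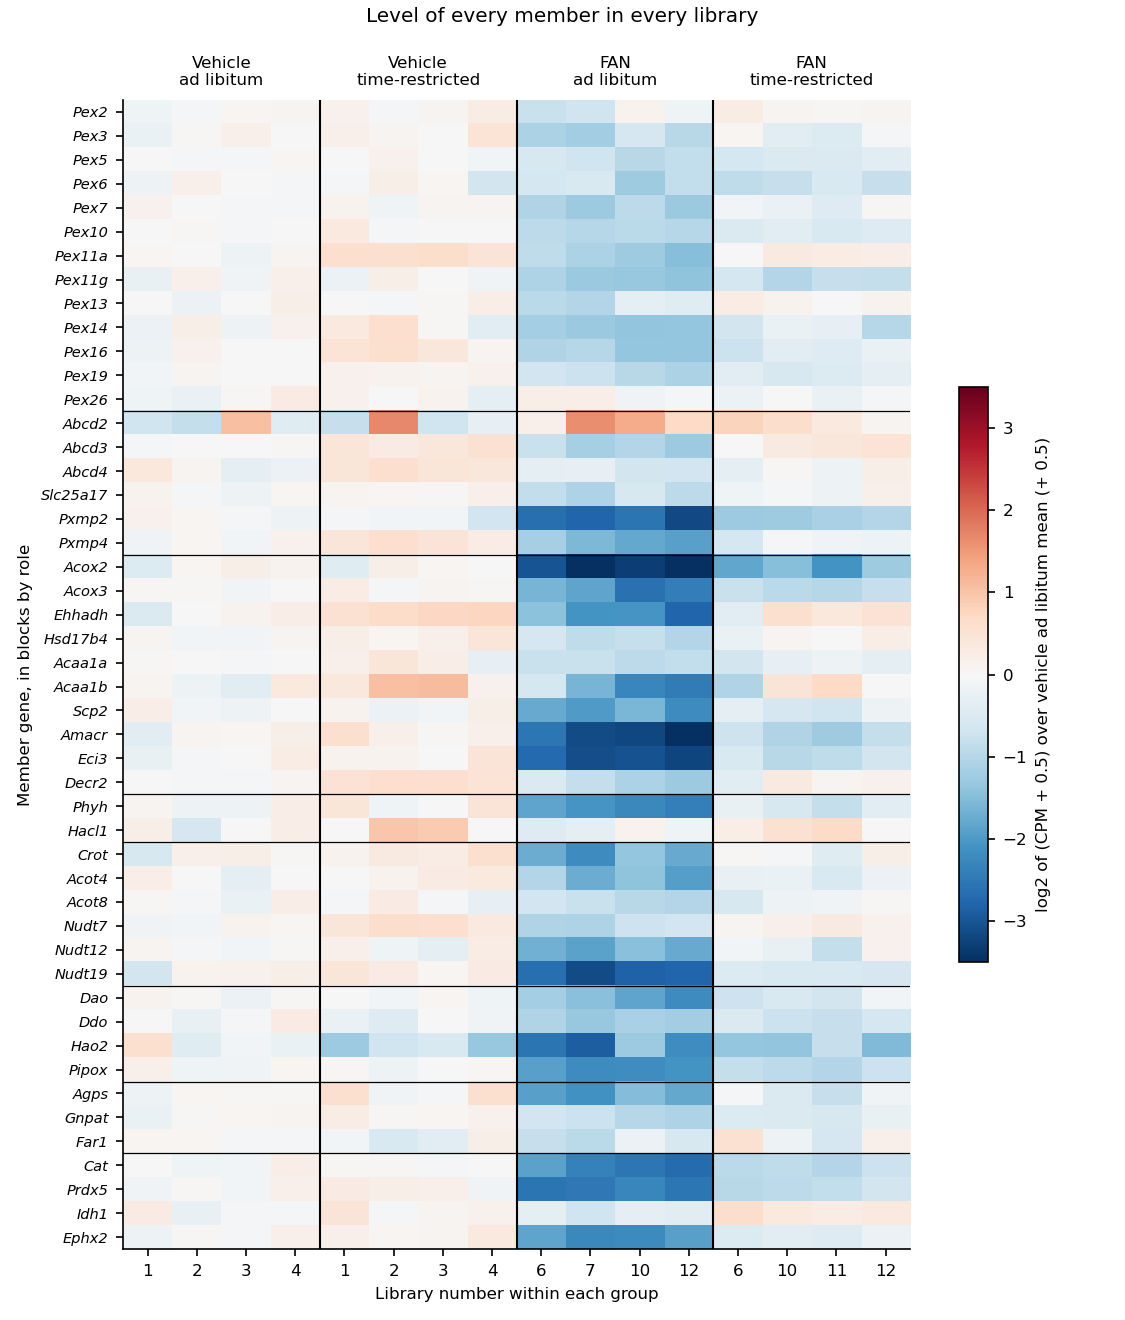
Level of each member (rows, in blocks by role) in each library (columns), as the log2 ratio of CPM plus 0.5 to the V-AL mean plus 0.5, blue for lower and red for higher. The 4 F-AL columns are blue in nearly every row, and Abcd2 is red in V-AL 3 and V-TR 2.

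The membrane transporters and channels were unequal. Of these 6 genes, 5 fell in F-AL and 3 in F-TR. On the total-count scale Abcd4 (0.22, adjusted p = 0.239) and Slc25a17 (−0.15, 0.163) did not pass in the first comparison. Pxmp2 (chr5:110274282-110286186), a pore for small solutes, measured 45.1, 42.8, 39.2 and 36.3 CPM in V-AL and 6.18, 5.52, 6.54 and 4.15 in F-AL. In the time-restricted groups it measured 39.7, 38.1, 38.2 and 25.5 with vehicle and 16.7, 16.8, 18.4 and 20 with FAN. No FAN library reached a vehicle library, and F-AL lay below F-TR. Its changes were −2.87 ± 0.16 (adjusted p = 2.27e-10) and −0.99 ± 0.15 (4.99e-05), and the interaction was 1.89 ± 0.22 (5.25e-05).

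Abcd3 (chr3:121758774-121815302), the importer of long-chain and branched acyl-CoAs and bile acid precursors, had the most counts of this role. It measured 415, 438, 434 and 450 CPM in V-AL, 252, 192, 214 and 180 in F-AL, 586, 526, 573 and 629 in V-TR and 432, 537, 576 and 601 in F-TR. F-AL stood alone at the bottom, and F-TR overlapped its vehicle. The change was −1.05 ± 0.13 (adjusted p = 2.10e-06) under ad libitum and −0.11 ± 0.13 (0.531) under time-restricted feeding. Pxmp4, another membrane protein of the organelle, measured 150 to 180 CPM in V-AL, 42.9 to 72 in F-AL, 194 to 246 in V-TR and 106 to 159 in F-TR. It fell under both regimens, by 1.60 and 0.65. The adenine nucleotide and CoA carrier Slc25a17 had differences of −0.84, which passed, and −0.14, which did not (interaction 0.71 ± 0.16, adjusted p = 0.0107).

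Abcd2, a very-long-chain acyl-CoA importer known from fat and brain, was among the scarcest members, and its FAN change moved with 2 vehicle libraries. It measured 0.538, 0.456, 3.02 and 0.757 CPM in V-AL, 0.466, 4.96, 0.54 and 0.896 in V-TR, 1.4, 4.7, 3.67 and 2.24 in F-AL and 2.41, 2.1, 1.65 and 1.3 in F-TR. The 2 high vehicle libraries, ad libitum 3 and time-restricted 2, also had the highest summed level of the 5 adipocyte markers, 487 and 871 CPM against 62.9 to 166 in the other 6 vehicle libraries. That sum was 44 to 225 CPM in F-AL and 105 to 208 in F-TR, where Abcd2 measured 1.3 CPM or more in every library. The FAN change of Abcd2 was 1.35 ± 0.70 (adjusted p = 0.107). It was 2.38 (adjusted p = 0.00955) without V-AL 3. Without V-TR 2 it was 1.35 (0.0289), and 1.63 (0.0485) under time-restricted feeding. The part of fat tissue in these values was not tested.

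All 10 genes of fatty acid beta-oxidation fell in F-AL, and 7 of 10 in F-TR. On the total-count scale 6 of the 10 kept the call in F-AL, and Hsd17b4 (−0.12, adjusted p = 0.394), Acaa1a (−0.14, 0.39), Decr2 (−0.21, 0.258) and Acaa1b (−0.83, 0.0819) did not pass. Their median log2 changes were −1.94 and −0.54, and all 10 were higher in F-TR than in F-AL (median 1.58), although Acaa1a was at −0.16 on the total-count scale. Acox2 (chr14:8225511-8259353), the oxidase for branched-chain acyl-CoAs and bile acid intermediates, had the lowest FAN level of the list as a share of vehicle. It measured 115, 168, 184 and 175 CPM in V-AL and 19.5, 13.6, 15.8 and 11.6 in F-AL, which is 9.42% of the vehicle mean. With time-restricted feeding it measured 119, 186, 167 and 160 in vehicle and 45.3, 56.8, 37.3 and 67.8 in FAN, 32.8% of vehicle. The groups did not overlap in either comparison. The changes were −3.41 ± 0.22 and −1.61 ± 0.20 (adjusted p = 6.72e-10 and 6.16e-06), and the interaction was 1.80 ± 0.28 (0.000549).

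Eci3 (chr13:34946614-34963810), an enoyl-CoA isomerase, had the largest interaction of the list. It measured 335, 383, 400 and 472 CPM in V-AL, 60.2, 45.7, 47.7 and 42.2 in F-AL, 430, 429, 401 and 541 in V-TR and 236 ± 33.7 (SD, n = 4) in F-TR. Every F-TR library held more than every F-AL library and less than every vehicle library. Its FAN changes were −3.02 ± 0.16 and −0.93 ± 0.15 (adjusted p = 1.49e-10 and 7.69e-05), with an interaction of 2.09 ± 0.21 (2.35e-05).

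Scp2 (chr4:108043839-108144998), which encodes the thiolase for branched chains and a sterol carrier, had the most counts of this role. It measured 1015, 815, 758 and 869 CPM in V-AL, 254, 217, 286 and 189 in F-AL, 947, 753, 815 and 994 in V-TR and 693, 577, 533 and 768 in F-TR. The time-restricted groups overlapped here, and the call between them (−0.45 ± 0.16, adjusted p = 0.0302) was lost without F-TR 10 or 11 or V-TR 1 or 4, with adjusted p of 0.0504 to 0.087. The change under ad libitum feeding was −1.87 ± 0.16 (2.68e-08).

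Amacr, which converts branched-chain acyl-CoAs to the form the oxidases accept, fell to 12.1% of vehicle in F-AL and 43.4% in F-TR (interaction 1.84 ± 0.27, adjusted p = 0.000334). Acox3, a further branched-chain oxidase, was at 23.8% and 51.2%. Ehhadh, the L-bifunctional enzyme, had the largest feeding difference within FAN, 142 ± 53.9 CPM (SD, n = 4) in ad libitum and 708 ± 188 in time-restricted (log2 difference 2.32 ± 0.25, adjusted p = 2.90e-06). Its level was 576 ± 120 in V-AL and 912 ± 57.6 in V-TR, so that the F-TR mean lay between the vehicle means.

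The remaining beta-oxidation genes fell less under ad libitum feeding. The log2 differences in F-AL and F-TR were −0.82 and −0.20 (not passed) for Hsd17b4, the D-bifunctional enzyme, −0.91 and −0.47 for Decr2, a dienoyl-CoA reductase, and −0.84 and −0.51 for the thiolase Acaa1a. Acaa1b is a near copy of Acaa1a that can share its reads, so the values of both are uncertain. Its differences were −1.55 ± 0.41 and −0.57 ± 0.40, of which the first passed, and with the early libraries alone, and so with 1 F-TR library, its feeding difference within FAN was −0.07 in place of 1.71.

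**Figure D4:**
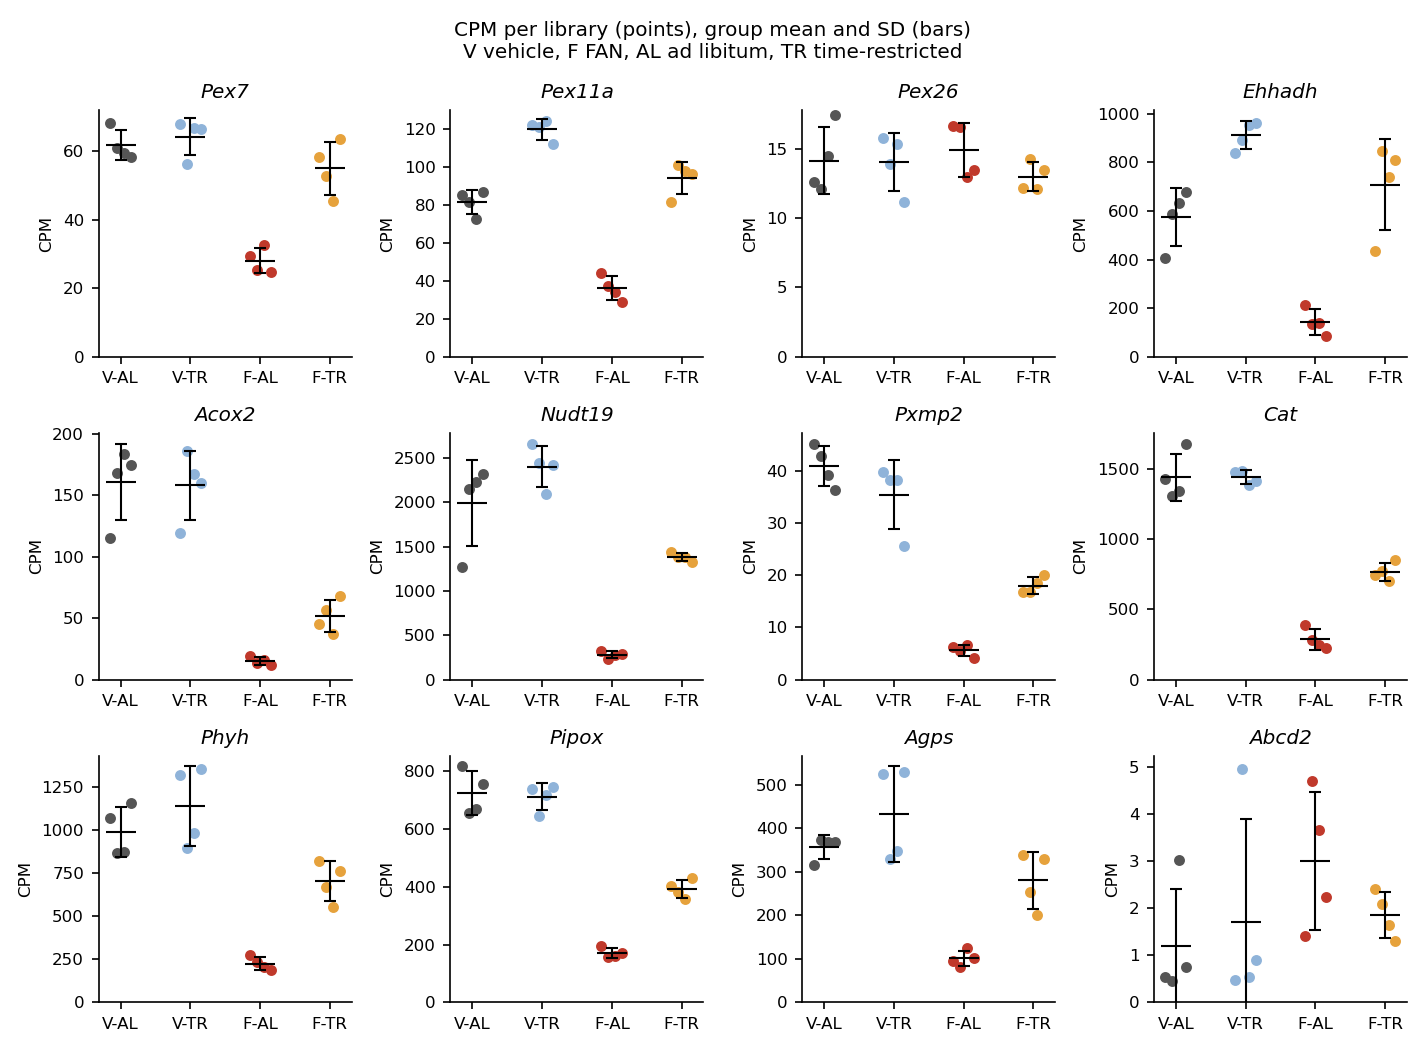
CPM (y axes, from 0) of 12 members in every library, with bars for the group mean and SD. In the panels for Acox2, Nudt19, Pxmp2, Cat, Phyh and Pipox the 4 F-AL points lie below the 4 F-TR points, which lie below most or all vehicle points, whereas Pex26 and Abcd2 show overlapping groups.

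Alpha-oxidation was represented by an abundant gene and a scarce one. Phyh (chr2:4919019-4938730), phytanoyl-CoA hydroxylase, the first enzyme of phytanic acid breakdown, measured 1068, 869, 870 and 1156 CPM in V-AL, 273, 235, 208 and 187 in F-AL, 1319, 896, 982 and 1353 in V-TR and 821, 671, 554 and 760 in F-TR. FAN lay below vehicle without overlap under both regimens, by −2.13 ± 0.18 and −0.70 ± 0.18 (adjusted p = 1.80e-08 and 0.00372). The interaction was 1.44 ± 0.25 (0.00113). Hacl1, the lyase of the following step, measured 0.631 to 1.51 CPM in V-AL and 0.754 to 1.34 in F-AL, and no comparison passed for it.

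The 6 genes for carnitine transfer, thioesterases and nudix hydrolases all fell in F-AL, and 3 of them in F-TR. On the total-count scale Acot8 (−0.18, adjusted p = 0.341) and Nudt7 (−0.20, 0.16) did not pass in F-AL. Nudt19 (chr7:35547185-35556304), a CoA diphosphatase prominent in kidney, measured 1271, 2152, 2224 and 2314 CPM in V-AL and 318, 228, 280 and 290 in F-AL. It measured 2657, 2438, 2091 and 2425 in V-TR and 1441, 1377, 1386 and 1329 in F-TR. V-AL 1 was low for its group and below the F-TR libraries. The changes were −2.83 ± 0.18 and −0.80 ± 0.17 (adjusted p = 7.06e-10 and 0.0011), with an interaction of 2.04 ± 0.24 (6.88e-05).

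Nudt12, which hydrolyses NAD(P)H, measured 72.3, 64.7, 62.2 and 69.2 CPM in V-AL and 20.5, 17.9, 23.9 and 19.5 in F-AL. Its time-restricted groups overlapped, at 54.3 to 81.1 in vehicle and 37.1 to 73.9 in FAN. The FAN change was −1.71 ± 0.18 under ad libitum and −0.24 ± 0.17 under time-restricted feeding (adjusted p = 1.70e-07 and 0.274). Crot, carnitine octanoyltransferase, was at 30.1% and 77.5% of vehicle, and the thioesterases Acot4 and Acot8 at 35.2% and 70.8%, and 53.8% and 88.3%. Acot4 belongs to a family of near-identical genes, so its counts are uncertain. Nudt7, a further CoA diphosphatase, was at 53.9% and 81%. Its call in F-TR (adjusted p = 0.0475) was lost in 10 of the 16 fits that left out 1 library, with adjusted p of 0.0521 to 0.122.

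The 4 oxidases of amino acids and hydroxy acids all fell in F-AL, 2 of them also in F-TR, and all 4 passed the interaction test. Pipox (chr11:77880615-77894096), the oxidase of pipecolic acid and sarcosine, measured 819, 654, 669 and 756 CPM in V-AL, 194, 157, 159 and 170 in F-AL, 740, 644, 716 and 745 in V-TR and 404, 381, 359 and 430 in F-TR. The spread within each group was small against the steps between F-AL, F-TR and the vehicle groups. Its changes were −2.09 ± 0.12 and −0.85 ± 0.12 (adjusted p = 3.49e-10 and 2.09e-05), and the interaction was 1.24 ± 0.17 (0.000181).

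Ddo (chr10:40630011-40681847), D-aspartate oxidase, measured 86.2, 72.7, 83.9 and 106 CPM in V-AL, 41.8, 34.2, 39.6 and 37.5 in F-AL, 74.1, 64, 87.5 and 80.2 in V-TR and 60.7, 52, 49.6 and 57.1 in F-TR. FAN lay below vehicle under both regimens (−1.19 ± 0.13 and −0.48 ± 0.13, adjusted p = 2.84e-07 and 0.00525). Dao, D-amino acid oxidase, was at 32.5% and 74.4% of vehicle. Hao2, which oxidises long-chain hydroxy acids, was lower under time-restricted feeding in vehicle mice, at 448, 227, 287 and 261 CPM in V-AL and 126, 187, 211 and 122 in V-TR. That difference of −0.92 ± 0.31 did not pass (adjusted p = 0.584). It entered the Hao2 interaction of 1.77 ± 0.44 (0.0162), a call that was lost without F-AL 6 and 7 together, among other fits.

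The 3 ether lipid genes fell in F-AL. On the total-count scale Far1 (0.08, adjusted p = 0.723) and Gnpat (−0.17, 0.192) did not pass there. Agps (chr2:75832177-75931350), which makes the ether bond, measured 315, 373, 370 and 368 CPM in V-AL, 82.2 to 124 in F-AL, 526, 330, 348 and 531 in V-TR and 340, 253, 202 and 329 in F-TR. The ad libitum groups were far apart and the time-restricted groups overlapped (−1.82 ± 0.19 and −0.63 ± 0.19, adjusted p = 2.63e-07 and 0.0123). Gnpat (chr8:124863033-124890057), the acyltransferase before it, measured 80.1 to 100 CPM in V-AL, 44.1 to 58.1 in F-AL, 96.3 to 112 in V-TR and 62.7 to 77.8 in F-TR, and fell by 0.87 and 0.58. Far1, which supplies the fatty alcohol, had differences of −0.60 ± 0.21 and 0.22 ± 0.21 (adjusted p = 0.0195 and 0.423). The first call was lost without F-AL 6 or without 7, with adjusted p of 0.0543 and 0.0625.

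The last role, redox enzymes and others, held several of the most abundant members. Per kilobase of transcript, Prdx5 had the highest V-AL level of the list (1161 CPM per kb), followed by Nudt19 (866), Phyh (689), Cat (551), Ephx2 (380) and Pipox (363). Among the lowest were Abcd2 (0.216), Hacl1 (0.415), Pex11g (3.52) and Pex26 (3.75). Prdx5 (chr19:6906697-6910106), a peroxiredoxin found in peroxisomes and mitochondria, measured 1929, 2170, 2001 and 2381 CPM in V-AL, 361, 373, 438 and 364 in F-AL, 2605, 2455, 2380 and 1932 in V-TR and 1090, 1133, 1158 and 1353 in F-TR. The 3 levels were separate, with F-AL lowest and the vehicle groups together at the top. The changes were −2.46 ± 0.14 and −0.99 ± 0.14 (adjusted p = 2.80e-10 and 1.86e-05), with an interaction of 1.48 ± 0.19 (0.000117).

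Ephx2 (chr14:66084374-66124500), the soluble epoxide hydrolase, measured 668, 776, 726 and 850 CPM in V-AL, 209, 158, 161 and 203 in F-AL, 849, 799, 801 and 953 in V-TR and 544, 579, 548 and 649 in F-TR. It fell to 24.2% of vehicle under ad libitum feeding and to 68.2% under time-restricted feeding, with an interaction of 1.49 ± 0.19 (adjusted p = 8.53e-05). Cat (chr2:103453849-103485160), catalase, measured 1440 ± 169 CPM (SD, n = 4) in V-AL, 285 ± 72.9 in F-AL, 1441 ± 50 in V-TR and 766 ± 61.4 in F-TR. It was at 19.8% and 53.2% of vehicle (interaction 1.42 ± 0.22, adjusted p = 0.000493). Idh1, a source of NADPH shared with the cytosol, had differences of −0.42 ± 0.15 and 0.23 ± 0.15 (adjusted p = 0.0182 and 0.217). The first call was lost without F-AL 7 or without V-AL 1, with adjusted p of 0.0625 and 0.0816, and the change was 0.27 on the total-count scale.

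Ranked by group mean, 25 members had the order F-AL, F-TR, V-AL, V-TR from lowest to highest, and 9 had the same order with the vehicle groups exchanged. The F-TR mean was above the V-AL mean for 13 members, among them Pex2, Pex13, Pex11a, Abcd3, Ehhadh and Idh1. Neighbours in these orders often overlapped. The vehicle groups, neighbours in both orders named, were free of overlap for only 8 members higher in V-TR and 1 lower. How many of all genes had these orders was not counted. Summed over all 48 members, levels were 3630 to 4610 CPM in F-AL, 10422 to 12088 in F-TR, 14110 to 16660 in V-AL and 16516 to 17992 in V-TR.

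Between the vehicle groups, feeding went with small differences and none passed by edgeR. No member and 0 of all 17731 genes passed in V-TR against V-AL by edgeR. At an unadjusted p under 0.05 there were 1143 genes (6.45%), of which 554 were higher. Among them 9 members were higher and 1 lower (Hao2). DESeq2 called 58 genes, including Pex11a (0.56, adjusted p = 0.00784) and Nudt7 (0.51, 0.0235). The median log2 difference of the members was 0.15, beside −0.01 over all genes. The groups did not overlap for 8 members that were higher (Pex11a, Pex19, Abcd3, Abcd4, Pxmp4, Ehhadh, Decr2 and Nudt7), against 2.85% of all genes, and for 1 that was lower (Hao2), against 2% (4.85% in either direction). Abcd3 for example had means of 434 ± 14.7 and 579 ± 42.5 CPM (SD, n = 4), a difference of 0.41 ± 0.13 with an adjusted p of 0.533.

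**Figure D5:**
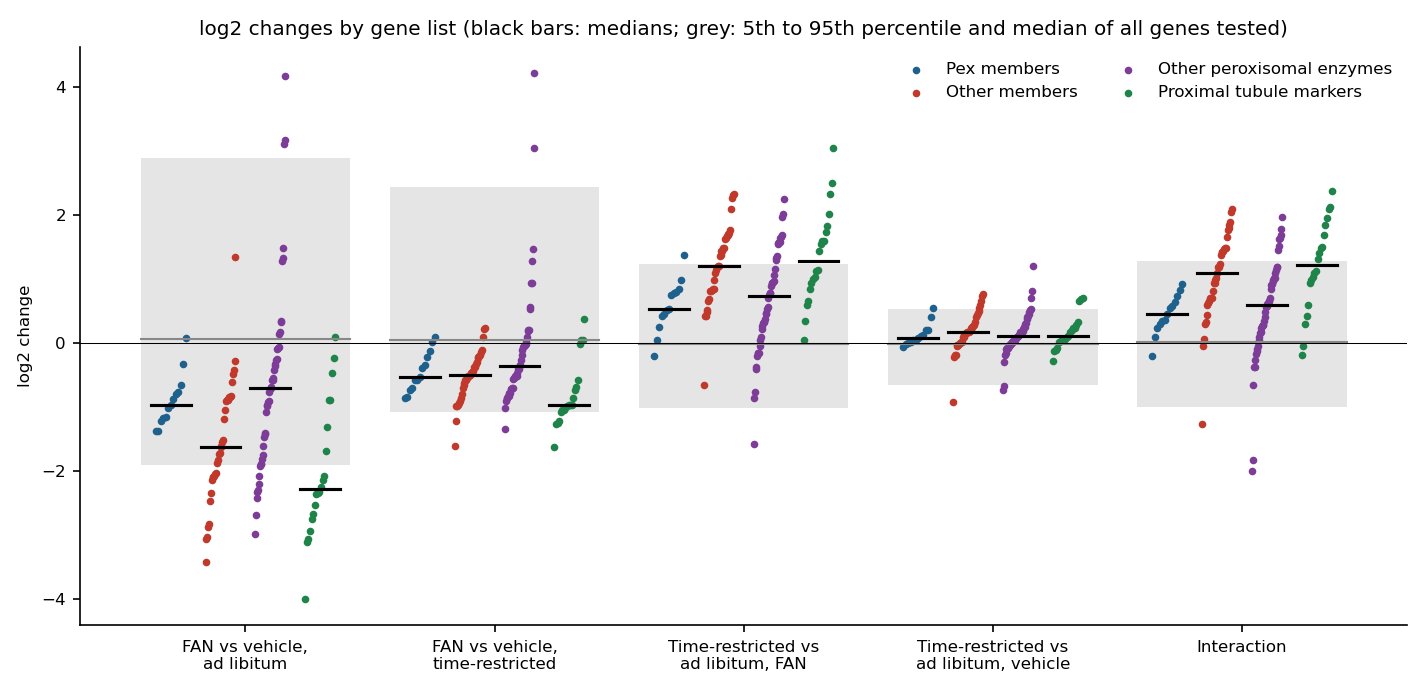
Log2 changes (y axis) of the Pex members, the other members, other peroxisomal enzymes and proximal tubule markers in the 5 comparisons (x axis), 1 point per gene, with black bars for medians and grey bands for the 5th to 95th percentile of all genes tested. The other members have medians of −1.62, −0.50, 1.21, 0.17 and 1.10 from left to right, and the vehicle feeding comparison is the narrowest.

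Peroxisomal genes outside the list followed in part. Over all genes, 28.6% fell and 32.1% rose in F-AL (median 0.06), and 19% fell and 24.5% rose in F-TR. Within FAN, 17.9% of all genes were higher and 13.9% lower under time-restricted feeding. Of 17 further biogenesis and division genes tested, 10 fell and 1 rose (Usp9x, a deubiquitinase, by 1.12) in F-AL (median −0.58), 7 fell and 2 rose in F-TR (Usp9x and Atad1, both named after their values were seen), and 9 were higher and 1 lower in F-TR than in F-AL. Of 47 further enzymes and membrane proteins tested, 31 fell and 5 rose (median −0.71), 21 fell and 5 rose, and 28 were higher and 1 lower. Those with the smallest p among the falls were Pecr, an enoyl-CoA reductase (−2.68 and −0.90), Sod1, superoxide dismutase, which is mostly cytosolic (−2.30 and −0.85), Slc27a2, a very-long-chain acyl-CoA synthetase and transporter (−2.42 and −0.78), and Dhrs4, a carbonyl reductase (−1.89 and −0.71). Pecr for example measured 558 ± 54.4 CPM (SD, n = 4) in V-AL, 87.4 ± 18.3 in F-AL, 634 ± 57.5 in V-TR and 341 ± 30 in F-TR. In F-TR, Acbd4 (−0.92), a tether to the endoplasmic reticulum, was also among the smallest p-values, and Eci2 (1.36) and Hint2 (interaction 1.62 ± 0.25) among the differences by feeding. The counts for both lists are with TMM scaling. On that scale the further biogenesis and division genes summed to 812 to 971 CPM in F-AL and 1189 to 1248 in V-AL. As percent of all counts they took more in F-AL (0.124%) than in V-AL (0.107%), so their fall depended on the scaling. The further enzymes and membrane proteins took 0.66% in F-AL and 1.43% in V-AL.

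A few of these genes rose in FAN. Acsl4, a ligase for arachidonic acid found in several membranes, measured 26 to 42.3 CPM in V-AL and 82.8 to 116 in F-AL, and 34.5 ± 4.41 against 94.6 ± 7.95 (SD, n = 4) in the time-restricted groups (1.49 ± 0.15 and 1.46 ± 0.15, adjusted p = 1.57e-07 and 8.19e-07). Xdh, xanthine dehydrogenase, rose by 1.32 and 0.94. Mgst1, a glutathione transferase named after its value was seen, passed in F-TR (0.93). Acsbg1, another acyl-CoA synthetase, measured 0.505 to 1.15 CPM in V-AL and 6.58 to 9.05 in F-AL. Uox, urate oxidase, measured at most 0.284 CPM in any vehicle library and 0.65 to 2.62 in the FAN libraries. Nos2 (3.11 in F-AL) and Mavs were lower in F-TR than in F-AL, by −1.58 and −0.52, but both were higher in the early than in the later F-AL libraries. Nos2 measured 3.71 and 2.85 CPM in F-AL 6 and 7, 1.06 and 0.903 in 10 and 12, and 0.236 to 1.27 in F-TR. Mavs was at 0.02 with the later libraries alone.

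Among 13 regulators, 5 fell and 2 rose in F-AL (median −0.09), where 28.6% of all genes fell and 32.1% rose (median 0.06). Ppara, the receptor that drives many of these genes, measured 15.2 and 13.4 CPM in F-AL 6 and 7, 5.76 and 4.59 in 10 and 12, and 6.76 to 15.4 in V-AL. Its change was 0.02 ± 0.34 (adjusted p = 0.959), and −0.95 ± 0.31 (0.0155) without F-AL 6 and 7, a fit that keeps the early vehicle libraries. With the later libraries alone in every group it was −0.55 ± 0.30 (0.145), and with the early ones alone 0.26. Ppara was higher in F-TR than in F-AL by 0.37 ± 0.34 with all libraries, and by 1.28 ± 0.31 (0.00847) without F-AL 6 and 7. This Ppara difference was 1.38 ± 0.28 (0.00625) with the later libraries alone and −0.50 with the early ones, which hold 1 F-TR library. Ppargc1a, its coactivator, measured 31.8 to 58.5 CPM in F-AL and 50.6 to 70.5 in V-AL (−0.30 ± 0.22, adjusted p = 0.248). On the total-count scale, where the median of all genes was 0.76, the F-AL change was 0.74 for Ppara and 0.40 for Ppargc1a. Neither passed there (adjusted p = 0.0591 and 0.0842). The 5 that fell with TMM scaling, named after their values were seen, were Hnf4a (−1.98 ± 0.16), a hepatocyte and proximal tubule factor, Esrra (−1.27), Nr1h4 (117 to 161 CPM in V-AL, 46.3 to 79.9 in F-AL), Rxra (−0.75) and Ppargc1b (−0.73). Their values on the total-count scale are not given here. Those that rose were Nfe2l2, the oxidative stress factor (0.51, and 0.56 under time-restricted feeding), and Ppard, which measured 13.3 and 15 CPM in F-AL 6 and 7 5.56 and 7.14 in 10 and 12, and 4.41 to 6.5 in V-AL.

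Markers of kidney cell types moved in both directions with FAN, where 28.6% of all genes fell and 32.1% rose in F-AL, and 19% fell in F-TR. Of 12 proximal tubule markers, 9 fell and 0 rose in F-AL (median −2.19) and 8 fell in F-TR (median −1.01). All 8 markers of its S3 segment fell in the first comparison (median −2.73) and 5 in the second (−0.97). Within FAN, 10 of the 12 and 7 of the 8 were higher in F-TR than in F-AL, where 17.9% of all genes were. The interaction passed for 7 of the 12 and 5 of the 8, all in the direction of the members, where 7.76% of all genes passed. The summed level of the 12 was 1855 to 4384 CPM in F-AL, 6917 to 8913 in F-TR, 12459 to 14741 in V-AL and 13207 to 17118 in V-TR. All 7 macrophage markers rose in F-AL (median 3.35) and all 5 markers of injured tubule (median 4.89). The fibroblast and pericyte markers rose for 5 of 6 (median 2.36). The summed macrophage level was 1554 to 2483 CPM in F-AL and 772 to 1528 in F-TR, against 118 to 237 in the vehicle groups. The injured tubule markers summed to 10220 to 17077 CPM in F-AL, 5325 to 12350 in F-TR and 537 to 818 in vehicle, and the fibroblast and pericyte markers to 844 to 1569, 480 to 877 and 106 to 239. Of 6 collecting duct markers tested, 5 fell in F-AL (median −1.60) and 3 in F-TR (−0.86), with sums of 110 to 284 CPM in F-AL, 238 to 334 in F-TR, 465 to 570 in V-AL and 401 to 514 in V-TR. Of the 5 markers of the thick ascending limb, 0 passed in F-AL by edgeR, with 1 at an unadjusted p under 0.05. Of 4 distal convoluted tubule markers, 1 rose and 1 fell in F-AL. Podocyte markers rose for 3 of 5, T cell markers for 3 of 4 and endothelial markers for 1 of 5, with 0 falling. The part of such changes in cell makeup in the fall of the peroxisomal genes was not tested.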

How the data were processed

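RNA was sequenced from 16 mouse kidney samples in 4 groups of 4. The authors deposited 1 table of raw gene counts, per the labels and from whole numbers in the file. STAR 2.5.3a, FastQC 0.11.5, edgeR 3.26.7 and mm10 are named in the submitters' processing notes. The counting tool, its strand setting and any trimming are not given in the sources used here.

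Vehicle columns matched sample titles. FAN columns matched a group only and are named by their column number. Counts were tested with edgeR 4.0.16 (quasi-likelihood test, robust; filterByExpr with a minimum count of 10; TMM) in R 4.3.3, in 1 model of 4 groups, with Benjamini-Hochberg adjustment over 17731 genes and a threshold of 0.05. The code was tested on simulated data, and p-values are from edgeR unless DESeq2 is named. Alternatives were DESeq2 1.42.0, total-count scaling, no filter, mitochondrial transcripts left out, only the compared groups, sheet position as a covariate, a replicate block for vehicle and leaving out each library. Fits to early or later libraries alone, or without FAN ad libitum 6 and 7, were added after the data were seen.

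Replicates differed by more than counting noise (chi-square per gene of at least 18.4), so none was counted as a duplicate. CPM per kb used the table's transcript length. Coordinates are from GENCODE M21 (GRCm38), matched by Ensembl ID, and promoter windows from RefSeq (GRCm38.p6). Members and gene lists were chosen with earlier results of these data known, so no list was tested. Members given in detail are, per role, the 2 with the smallest p under ad libitum feeding and that with the highest CPM, and the 6 with the smallest interaction p. Other pathway genes named by rule are the 4 with the smallest p per direction and comparison, with Ppara and Ppargc1a. Any others are marked as named after their values were seen. Of the genes this rule names, 1 is not reported here.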

Additional observations from a re-analysis of the deposited data

Results flagged for a closer look

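In 9 of 192 gene-by-group sets of 4 libraries, 1 library stood apart from the other 3 by Dixon's test, and chance gives about 1 in 20. Abcd2 measured 3.02 CPM in V-AL 3 (others 0.456 to 0.757) and 4.96 in V-TR 2 (others 0.466 to 0.896), the libraries with the highest summed adipocyte markers. Pex7 was low in V-TR 2 (56.2, others 66.4 to 67.9), Abcd4 high in the same library (29.3, others 25.7 to 26.1), Pex10 high in V-TR 1 (19, others 14.2 to 14.7) and Pxmp2 low in V-TR 4 (25.5, others 38.1 to 39.7). Nudt19 and Agps were low in V-AL 1 (1271, others 2152 to 2314, and 315, others 368 to 373). Prdx5 was high in F-AL 10 (438, others 361 to 373).

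The FAN effect differed between the feeding regimens for 28 members by the interaction test, each log2 value being the time-restricted minus the ad libitum effect. Over all genes, 7.76% passed with a positive value, the direction of all 28, and 9.16% in either direction. Among the biogenesis genes the members were Pex7 (0.92), Pex11a (0.83) and Pex13 (0.74). All of these, and further members named above, lost the call on the total-count scale. Among transporters and channels they were Pxmp2 (1.89), Abcd3 and Pxmp4 (0.94 each) and Slc25a17 (0.71). In beta-oxidation and alpha-oxidation they were Eci3 (2.09), Amacr (1.84), Acox2 (1.80), Ehhadh (1.65), Phyh (1.44), Scp2 (1.42), Acox3 (1.10) and Hsd17b4 (0.62). In carnitine transfer and hydrolysis they were Nudt19 (2.04), Nudt12 (1.47), Crot (1.37), Acot4 (1.01) and Nudt7 (0.59). The oxidases were Hao2 (1.77), Pipox (1.24), Dao (1.19) and Ddo (0.71), the ether lipid gene was Agps (1.19), and the redox and other genes were Ephx2 (1.49), Prdx5 (1.48) and Cat (1.42).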

How the results depend on the processing

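Under the alternatives run, 28 of the 44 members that fell in F-AL, 14 of the 29 that fell in F-TR, 23 of the 43 that were higher in F-TR than in F-AL and 8 of the 28 with an interaction (Pxmp2, Scp2, Eci3, Phyh, Nudt19, Pipox, Prdx5 and Ephx2) were called the same way in every fit. Total-count scaling moved the most. In F-AL against V-AL it gave 28 members down and 3 up, with Pex2 at 0.35, Pex13 at 0.04, Abcd4 at 0.22, Far1 at 0.08 and Idh1 at 0.27, and it moved all genes from 5691 up and 5079 down to 10823 and 2070. In F-TR against V-TR it gave 1 member up (Idh1). In F-TR against F-AL it called 11502 genes in place of 5639 (990 up and 10512 down, from 3180 and 2459), with 24 members up and 3 down, a Pex median of −0.12, Pex10 at −0.12, Pex2 at −0.17, Acaa1a at −0.16, Pex11g and Ddo at −0.13, Pex19, Abcd4 and Gnpat at −0.23, Pex5 at −0.40, Pex6 at −0.62 and Ppargc1a at −0.54. For the interaction it called 6631 genes in place of 1625 (504 up and 6127 down, from 1376 and 249), with 15 members up and 2 down, a Pex median of −0.14 and Nudt7 at −0.00. The early libraries alone, with 1 F-TR library assumed to vary like the other groups, gave 1 member up (Far1) in F-TR against V-TR, 15 up for the interaction, and Abcd4 at −0.03 and Acaa1b at −0.07 in F-TR against F-AL. The later ones gave 2582 genes in F-TR against F-AL, with Mavs at 0.02, and 905 for the interaction. Without F-AL 6 and 7, 3127 genes passed in F-TR against F-AL and Ppara was at −0.95 in F-AL against V-AL, beside −0.55 with the later libraries alone. For V-TR against V-AL, where edgeR called 0 genes, 6 passed with no filter, 1 with only those groups fitted, 58 (2 members up) by DESeq2, and 7 (1 member, Pex11a) without F-AL 6 and 7. Leaving out 1 library at a time gave 0 to 4 genes there and 0 to 1 member up in F-AL or F-TR against vehicle (Abcd2, without V-AL 3 or V-TR 2). The fits that left out 1 library took away, besides the calls named above, Abcd4 in F-AL against V-AL (adjusted p = 0.0663 without V-AL 1), Acot4 (up to 0.0596, without V-TR 3 or 4) and Decr2 (0.0639, without F-TR 6) in F-TR against V-TR, Pex2 (0.123), Pex11g (0.0745), Abcd4 (0.142), Hao2 (0.136) and Far1 (0.119) in F-TR against F-AL, and the interactions of Hsd17b4 (0.0899) and Nudt7 (0.0804), the values in brackets being the highest adjusted p. The cause of changes other than by scaling or fewer libraries was not tested. Replicate numbers are shared in the labels by the vehicle groups, but libraries of the same number did not deviate together in every pair (correlations 0.18, 0.12, −0.15 and −0.01). A replicate block called 0 genes and 0 members. A count of 3 limits Uox most, and Abcd2 and Hacl1 were low but above that level in every library.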
